A study of Macaca mulatta with 16 samples.

Results

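Mitochondrial ribosomal protein genes were taken as the entries of the count table whose gene symbol starts with MRPL or MRPS followed by a digit. The rule found 62 of 19425 genes, 40 whose products belong to the large subunit of the mitochondrial ribosome and 22 of the small subunit. The RNA came from formalin-fixed, paraffin-embedded (FFPE) cardiac tissue of 8 rhesus macaques from a model of right ventricular pressure overload, and tissue of each animal was extracted by both methods, giving 16 libraries in 8 pairs. Method QE used the Qiagen AllPrep DNA/RNA FFPE kit with removal of paraffin in xylene and extra ethanol washes. Method BL used the CELLDATA RNAstorm FFPE kit with a lengthened protease lysis. All animals were perfused with paraformaldehyde and all blocks had been archived at room temperature. All libraries were stranded total RNA libraries depleted of rRNA and made without a step to fragment the RNA. The labels used here do not give which animals had the overload, their ages or the heart chamber, so none of these could be compared.

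The mitochondrial ribosome sits in the mitochondrial matrix and translates only the mRNAs of the mitochondrial genome, which encode core subunits of the respiratory chain and of ATP synthase. Its rRNAs are made from mitochondrial DNA, while all of its proteins are encoded in the nucleus, made on cytosolic ribosomes and imported. Some of these proteins have a counterpart in the bacterial ribosome and others are specific to mitochondria, and inherited defects in several of them cause disease of the heart, a tissue rich in mitochondria. NRF1, ETS factors of the GABP type and YY1 are nuclear factors known to bind promoters of genes for mitochondrial proteins.

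Stretches upstream of 4 members are shown, the 3 members with more than 1 ETS motif and the only member with an NRF1 motif. Whether these motifs have a part in the levels reported below was not tested. Sequences were read 5′ to 3′ on the strand of the gene from Mmul_10 upstream of the RefSeq start of the gene, and capitals mark the motif in either orientation.
MRPL51, chr11:6646330-6646479, minus strand, the 150 bases before the start: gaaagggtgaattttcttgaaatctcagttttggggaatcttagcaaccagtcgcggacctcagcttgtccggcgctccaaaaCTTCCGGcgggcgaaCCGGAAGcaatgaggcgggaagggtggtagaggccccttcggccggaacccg
MRPS22, chr2:41490222-41490321, plus strand, the 100 bases before the start: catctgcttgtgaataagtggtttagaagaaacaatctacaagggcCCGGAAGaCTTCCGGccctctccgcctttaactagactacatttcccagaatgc
MRPS34, chr20:1796249-1796323, minus strand, the 75 bases before the start: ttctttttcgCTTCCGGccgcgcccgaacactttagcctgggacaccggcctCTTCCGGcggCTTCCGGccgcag
MRPL34, chr19:16807502-16807601, plus strand, the first 100 of the 250 bases before the start: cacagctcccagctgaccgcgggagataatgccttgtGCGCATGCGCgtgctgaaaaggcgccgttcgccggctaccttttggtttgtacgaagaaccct

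In windows of 250 bases before to 50 bases after the start, searched on both strands, the ETS motif CCGGAAG was found in 13 of 62 members (21%) and in 9.98% of 20769 protein-coding RefSeq genes. The NRF1 motif, the palindrome in capitals in the MRPL34 stretch, was found in 1 member (1.61%) and in 1.34% of all genes. The YY1 motif AAGATGGCG was found in 3 members (4.84%), namely MRPL32, MRPL36 and MRPS11, and in 1.41% of all genes. At least 1 of the 3 motifs was in 17 members (27.4%) and in 12.1% of all genes. These are matches of letters, and binding was not measured.

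The gene counts of a library summed to 19.3 to 25.7 M with Method QE and to 15 to 25.8 M with Method BL, and the members had estimated counts of 13 to 2320 per library. The tissue label was checked against cardiac muscle markers, 9 of 10 of which were in the table. MYH7 had 8659 to 19582 CPM and MYL2 had 896 to 3884 CPM over the 16 libraries, while the atrial gene NPPA had 0 to 44.5 CPM and the adipocyte gene ADIPOQ 0.530 to 80.9 CPM. Of the other adipocyte markers, LEP and PLIN1 had 0 to 8.59 CPM and 0.318 to 21.3 CPM, and PLIN4, which heart muscle also expresses, had 96.0 to 302 CPM. CPM, the count of a gene relative to the total of its library, are scaled here by TMM factors, which set libraries on a common scale from the trimmed mean of their gene ratios. In such bulk tissue, fewer cells of a type and less RNA per cell cannot be told apart.

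The first comparison asked whether the 2 extraction methods gave different levels of the members in the same animals. No member passed the test (0 of 62 at an adjusted p under 0.05, edgeR quasi-likelihood with Benjamini-Hochberg adjustment over 14165 genes), where 2.14% of all genes tested passed it, 0.854% higher and 1.28% lower in Method QE. That share was itself unstable, at 0.261% without animal rh2740 and 0.295% with an offset for transcript length and GC content. The fit with the offset held only 11869 genes. Over the same genes with no offset the share lay between 0.295% and 2.14%, so only part of that drop came with the offset. The members lay mostly on one side, since 57 of 62 had a log2 fold change above 0 and 5 below 0, with a median of 0.14 beside 0.0036 over all genes tested. At an unadjusted p under 0.05, 13 members (21%) were higher in Method QE and none were lower, beside 8.37% higher and 9.65% lower of all genes and 18% in either direction. Single log2 fold changes ran from -0.13 for MRPL39 to 0.43 for MRPS34, and the 95% interval included 0 for 49 members. DESeq2 called 1 member, MRPL51, and 4.44% of its genes, and limma-voom called 0 members and 2.44% of its genes.

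**Figure D1:**
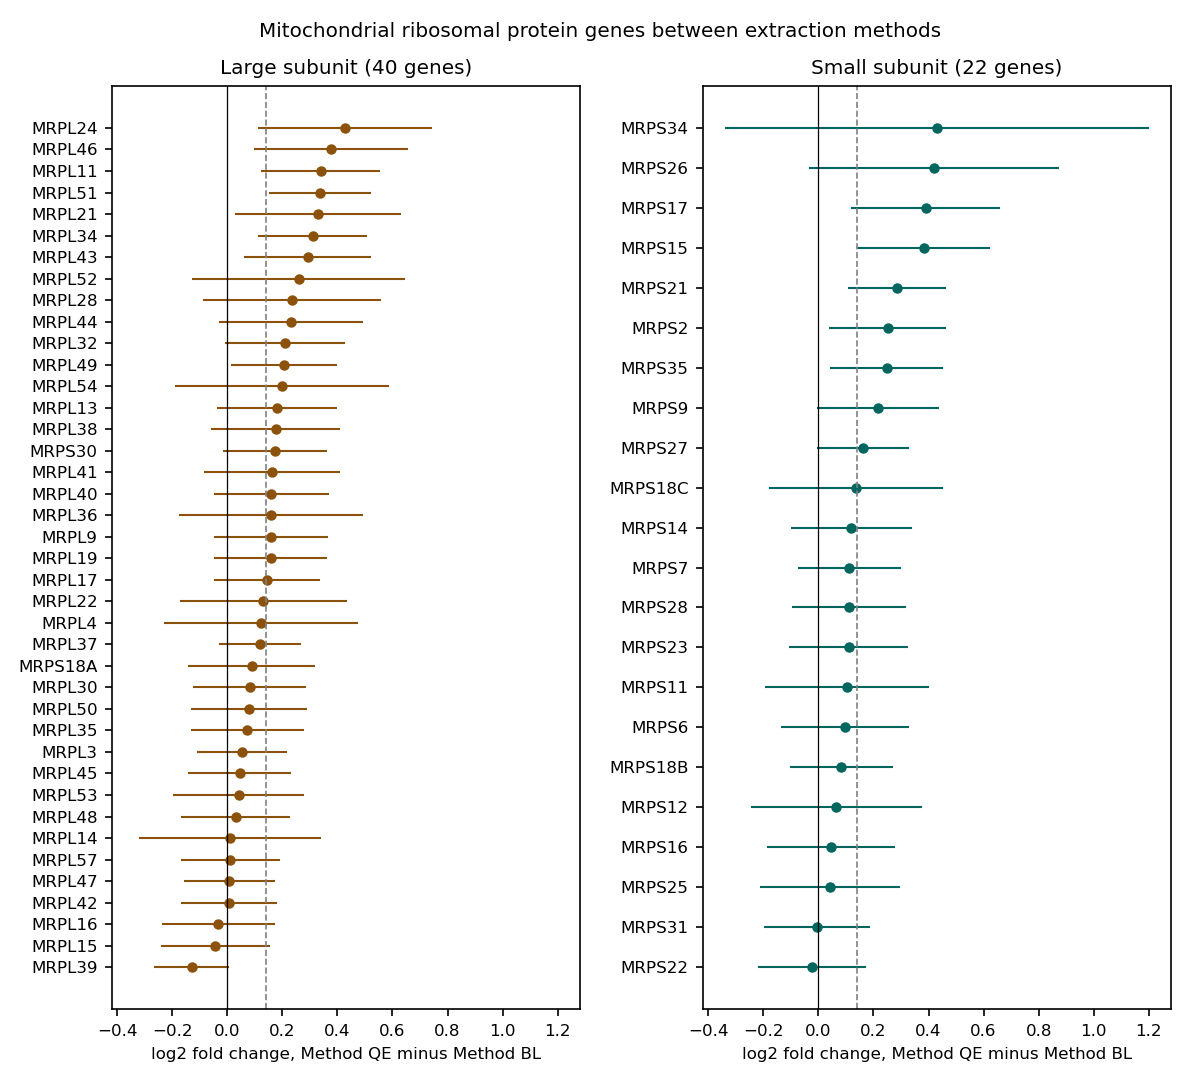
Log2 fold change of each member between methods (x axis, Method QE minus Method BL), with large subunit genes at the left and small subunit genes at the right, sorted by value. Points are edgeR estimates, bars are 95% intervals, and the dashed line is the median of 0.14 over the 62 members; 57 points lie to the right of 0 and most intervals cross it.

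The 6 members with the smallest p all had higher values in Method QE. MRPL51, a large subunit protein specific to mitochondria (ENSMMUG00000018676, chromosome 11, 6642524 to 6646278), had a lowest, median and highest level of 21.4, 28.9 and 33.6 CPM in Method QE, against 14.6, 23.1 and 29.0 CPM in Method BL. Its level was higher in Method QE in 7 of 8 animals, animal r16010 being the exception, and the ranges of the methods overlapped. The log2 fold change was 0.34 (SE 0.09) with an edgeR adjusted p of 0.0600, and the adjusted p ran over the alternatives from 0.0228 by DESeq2 to 0.785 in the 3 animals whose Method BL names end in R. MRPS21, the counterpart of bacterial S21 in the small subunit, had 12.9, 15.4 and 16.8 CPM in Method QE, against 9.95, 11.9 and 16.9 CPM in Method BL. Again r16010 was the only animal with the higher level in Method BL, and that library was the highest of all 16. The log2 fold change of MRPS21 was 0.29 (SE 0.08, adjusted p = 0.0947 by edgeR). Its span overlaps another entry of the table.

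MRPS15, whose bacterial counterpart binds the small subunit rRNA early in assembly, had 7.53, 10.4 and 11.7 CPM in Method QE as the lowest, median and highest level, against 5.61, 7.79 and 10.5 CPM in Method BL. Only animal r15045 had slightly less in Method QE, and the log2 fold change was 0.38 (SE 0.11, adjusted p = 0.0975 by edgeR). MRPL34, a small basic protein of the large subunit with a bacterial counterpart, had 19.9, 23.4 and 25.9 CPM in Method QE, against 11.9, 18.9 and 24.7 CPM in Method BL. The lowest 2 libraries of MRPL34 were the Method BL libraries of r16116 and rh2957, and the ranges overlapped. Its log2 fold change was 0.31 (SE 0.09, adjusted p = 0.100 by edgeR).

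For MRPL11, whose bacterial counterpart lies at the base of the stalk that binds translation factors, levels were 8.47, 9.72 and 14.3 CPM in Method QE, against 6.87, 7.93 and 11.8 CPM in Method BL. Animal r12075 was the highest with either method, and the log2 fold change was 0.34 (SE 0.10, adjusted p = 0.100 by edgeR). For MRPS17, the counterpart of the rRNA-binding bacterial S17, levels were 14.9, 18.2 and 20.9 CPM in Method QE, against 8.96, 13.6 and 22.4 CPM in Method BL. The Method BL library of r15045 was the highest of the 16, so the range in Method QE lay within that in Method BL. The log2 fold change of MRPS17 was 0.39 (SE 0.13, adjusted p = 0.126 by edgeR). With animal r15045 left out, 2 members passed, MRPL51 and MRPS17, beside 2.51% of all genes. With an offset for transcript length and GC content in the fit, the log2 fold changes were 0.16 for MRPL51, 0.05 for MRPS21, 0.29 for MRPS15, 0.15 for MRPL34, 0.18 for MRPL11 and 0.32 for MRPS17.

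**Figure D2:**
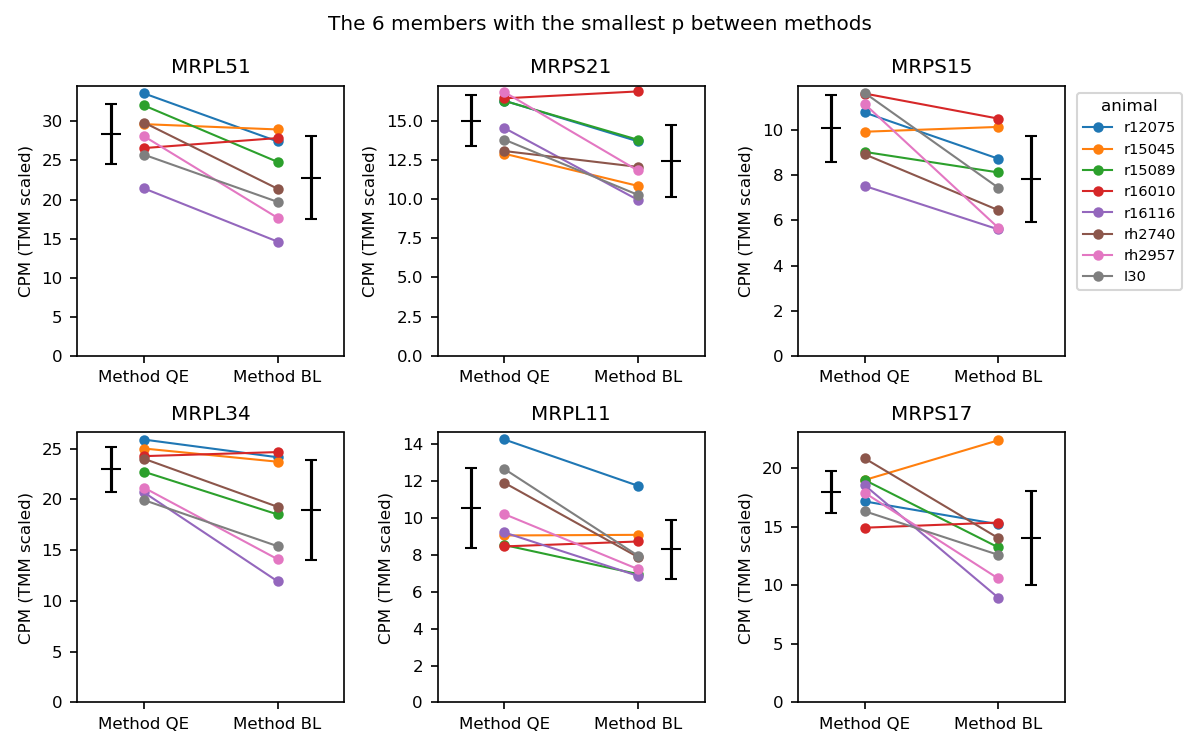
CPM of the 6 members with the smallest p between methods (y axis, TMM scaled, from 0), with Method QE at the left and Method BL at the right of each panel. Each line joins the libraries of 1 of 8 animals, and bars beside the points are the mean ± SD; most lines fall toward Method BL and the ranges overlap in all panels.

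At the ends of the fold changes stood MRPL39 and MRPS34. MRPL39, a large subunit protein specific to mitochondria (chromosome 3, 21060833 to 21299022), had 39.9, 54.5 and 70.8 CPM in Method QE, against 38.7, 61.2 and 87.5 CPM in Method BL. It was higher in Method QE in 2 of 8 animals, and its log2 fold change of -0.13 (SE 0.06, adjusted p = 0.308 by edgeR) did not pass. MRPS34, a small subunit protein in which inherited variants cause Leigh syndrome, had 2.24, 5.72 and 11.6 CPM in Method QE, against 1.22, 3.93 and 14.97 CPM in Method BL. The methods disagreed widely within animals, since r12075 had 6.13 CPM with Method QE and 1.22 CPM with Method BL while r16010 had 2.24 CPM and 5.74 CPM. The log2 fold change of MRPS34 was 0.43 with an SE of 0.36 (adjusted p = 0.568 by edgeR), the widest interval of the members, from -0.34 to 1.20. Its span overlaps that of NME3, and its estimated counts ran from 18.7 to 322. Spans of 26 of the 62 members overlap another entry, and whether counting used strand is not given in the sources used here, so reads of such neighbours may be shared.

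As no member passed the test between methods, those with known links to inherited disease in humans did not either. MRPL44, a large subunit protein with a fold like RNase III and with variants known in hypertrophic cardiomyopathy, averaged 11.3 ± 2.43 CPM in Method QE and 9.86 ± 3.18 CPM in Method BL (SD, n = 8 each). Its log2 fold change was 0.23 (SE 0.12, adjusted p = 0.336 by edgeR). MRPL3, whose variants are also known in cardiomyopathy, averaged 19.8 ± 3.06 CPM in Method QE and 19.3 ± 4.60 CPM in Method BL (SD, n = 8 each), a log2 fold change of 0.05. MRPS22, a small subunit protein with variants in a disorder that includes cardiomyopathy, averaged 46.4 ± 8.64 CPM in Method QE and 48.5 ± 15.6 CPM in Method BL (SD, n = 8 each), with a log2 fold change of -0.02. MRPS16, a counterpart of bacterial S16 in which variants cause a fatal infantile disorder, had a log2 fold change of 0.05 (95% interval -0.19 to 0.28). The 3 proteins related to bacterial S18 sit apart in the ribosome, MRPS18A in the large subunit and MRPS18B and MRPS18C in the small one. Their log2 fold changes were 0.09, 0.08 and 0.14, and none passed the test.

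The shift of the members was uneven across animals. The median paired difference of log2 CPM over the 62 members was 0.54 in animal rh2957, 0.33 in I30, 0.20 in both rh2740 and r16116, 0.09 in r15089 and 0.05 in r12075, but -0.07 in r16010 and -0.17 in r15045. Over all genes tested the same medians stayed between -0.02 and 0.02. In animal rh2957, 61 of 62 members were higher with Method QE, against 18 in r16010 and 19 in r15045. Of the single members, 10 were higher with Method QE in 7 of 8 animals and 0 in all 8. The same counts over all genes tested are not given here, so these counts have no background to be read against.

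Markers of cardiac muscle and the share of genes of the mitochondrial genome also moved between the paired libraries. In animal rh2957 the summed cardiac markers were at 98336 CPM in the Method QE library and 64911 CPM in the Method BL library, which was the lowest of all 16. The sum did not follow a single direction over the animals, being higher in Method QE in 4 of 8. In the 2 animals with negative member medians it was lower in Method QE. There r15045 had 135678 CPM with Method QE and 143560 CPM with Method BL, and r16010 had 122263 CPM and 125920 CPM. It was also lower in Method QE beside positive member medians. In r15089 it was at 100551 CPM with Method QE and 114683 CPM with Method BL, and in rh2740 at 110200 CPM and 136813 CPM. TTN made up most of the sum, with means of 98884 CPM in Method QE and 101170 CPM in Method BL. It was higher in Method QE in 4 of 8 animals. Of the 9 markers, 7 had a log2 fold change above 0, with a median of 0.25, and 0 passed. MYH7, MYL2 and MYL3 were higher in Method QE in 7 of 8 animals, ACTC1 and RYR2 in 3 of 8. Genes of the mitochondrial genome, rRNA entries included, took 27.4% of gene counts with Method QE and 39.3% with Method BL in r15045. In r16010 they took 31.9% and 34.3%. In the other 6 animals their share was higher with Method QE, the widest gap being 44.4% with Method QE and 25.8% with Method BL in rh2740. So the 2 animals with less mitochondrially encoded RNA in Method QE were those with negative member medians. The sizes did not go together as closely: rh2957, with the largest member median, had 29.4% with Method QE and 23.7% with Method BL, and r15089, with a member median of 0.09, had 40.6% with Method QE and 27.1% with Method BL. The part of these measures in the members' values was not tested. Without rh2957, the median log2 fold change of the members was 0.08 and 48 of 62 lay above 0, and without r15045 it was 0.19.

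**Figure D3:**
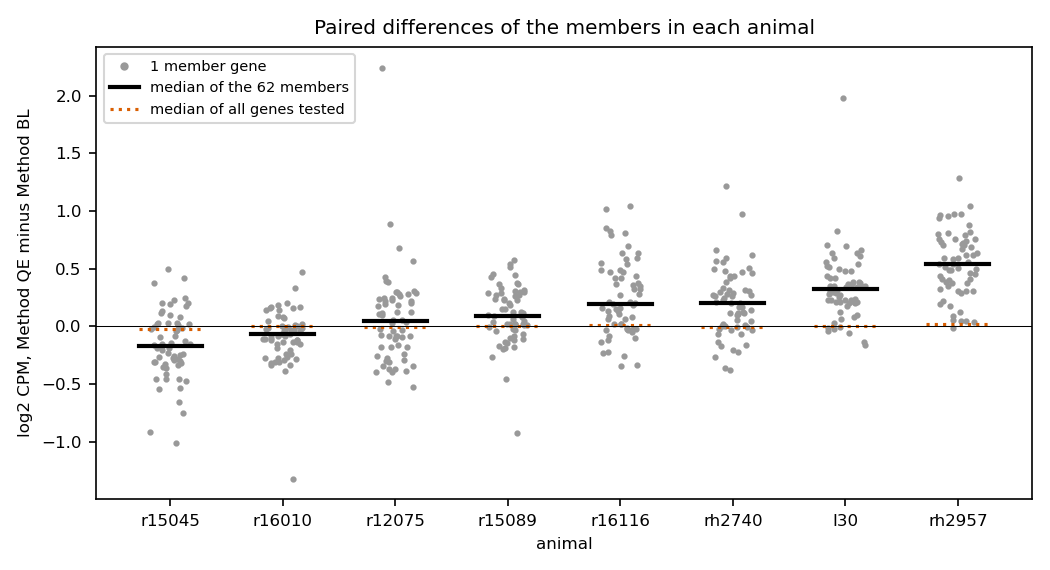
Paired difference of log2 CPM (y axis, Method QE minus Method BL) for each of the 62 members in each of 8 animals (x axis), sorted by the median. Grey points are members, black bars their median and dotted orange bars the median of all genes tested; the black bars run from -0.17 in animal r15045 to 0.54 in rh2957, while the orange bars stay near 0.

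As a part of all gene counts, the members together took 0.110% ± 0.0148 in Method QE and 0.120% ± 0.0124 in Method BL (SD, n = 8 each), and the share was lower in Method QE in 6 of 8 animals. With the genes of the mitochondrial genome left out of the total, the share was 0.172% ± 0.0142 in Method QE and 0.168% ± 0.0247 in Method BL, and it was higher in Method QE in 4 of 8 animals. Both differences were smaller than the spread between animals. The summed level after TMM scaling was 1195 ± 102 CPM in Method QE and 1117 ± 227 CPM in Method BL, higher in Method QE in 5 of 8 animals. With library totals alone and no scaling factors, an alternative added after seeing the data, the median of all genes moved to -0.24 and that of the members to -0.10, so the sign changed with the scale while the members stayed above the median of all genes.

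Members also differ from most genes in length, with a median transcript of 1370 bases beside 3364 bases over 11933 tested genes with a RefSeq transcript, and little in GC content, with medians of 49.9% and 49.2%. When the fit with the animal block was given an offset for transcript length and GC content, the median log2 fold change of the members was 0.07, beside 0.02 over the 11869 genes of that fit, and 41 of 62 lay above 0. Over the same genes with no offset it was 0.13.

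Levels of different members were compared per kb of the longest RefSeq transcript. The members had a median of 10.7 CPM per kb and ran 31.0-fold, with the large subunit at a median of 9.83 and the small subunit at 11.7 CPM per kb. MRPL49, a large subunit protein specific to mitochondria, was the most abundant by this measure at 51.3 ± 5.75 CPM per kb in Method QE and 44.8 ± 7.79 CPM per kb in Method BL (SD, n = 8 each). MRPS23 of the small subunit followed at 41.3 ± 9.24 and MRPL51 at 35.7 ± 4.82 CPM per kb in Method QE, against 38.3 ± 8.27 and 28.7 ± 6.62 CPM per kb in Method BL. The intervals of mean ± SD of these neighbours overlapped within each method. The span of MRPL49 overlaps SYVN1 and that of MRPS23 overlaps CUEDC1.

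At the low end, MRPS26 had 1.77 ± 0.526 CPM per kb in Method QE and 1.33 ± 0.459 in Method BL, with estimated counts of 13 to 64 per library. MRPL53 had 2.60 ± 0.280 CPM per kb in Method QE and 2.54 ± 0.403 in Method BL, and MRPL44 had 2.85 ± 0.613 in Method QE and 2.49 ± 0.804 in Method BL (SD, n = 8 each). These 3 are all proteins specific to mitochondria, but so are MRPL49, MRPS23 and MRPL51 at the high end. The order at both ends rests on the transcript used. With the shortest transcript MRPL39 ranked 1, MRPL49 2, MRPS18B 3, MRPS23 4 and MRPL51 5. MRPL53 ranked 61 of 62 with its longest transcript and 17 with its shortest, and MRPS26 ranked 62 with either.

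**Figure D4:**
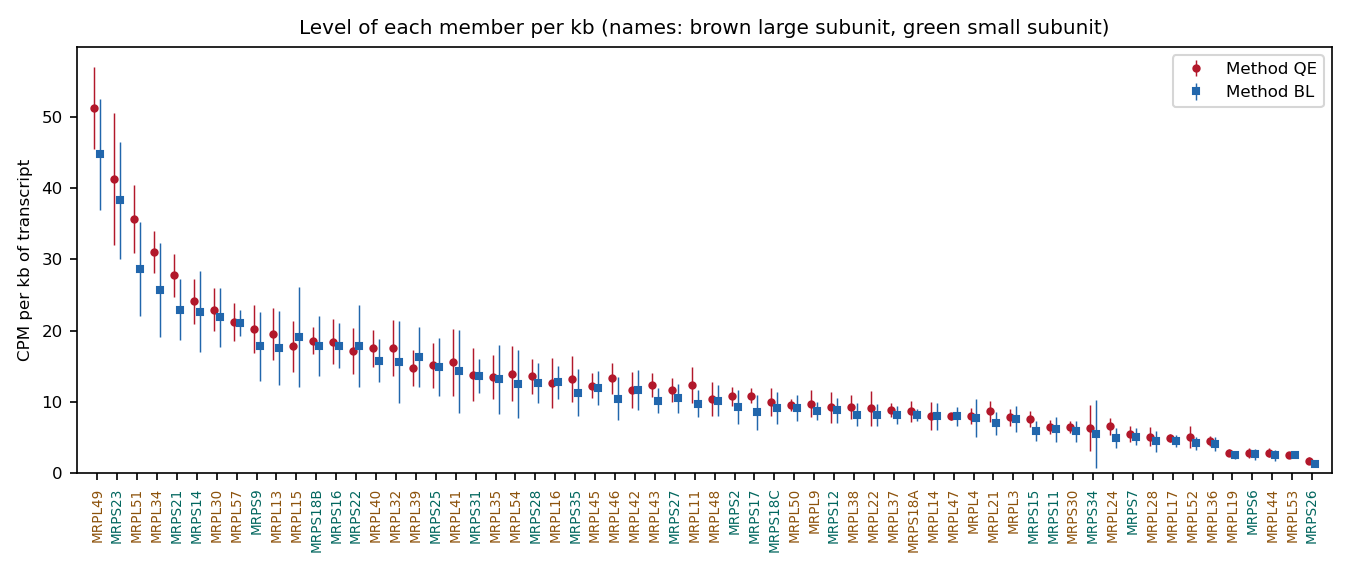
Level of each of the 62 members in CPM per kb of the longest RefSeq transcript (y axis, from 0), sorted by the mean over all libraries. Red circles are Method QE and blue squares Method BL, each the mean ± SD of 8 libraries; MRPL49 stands at 51.3 in Method QE and 44.8 in Method BL, and MRPS26 at 1.77 in Method QE and 1.33 in Method BL.

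The second comparison asked whether the animals differed by more than the spread left after animal and method. Here 20 of 62 members (32.3%) passed at an edgeR adjusted p under 0.05, close to the 31.5% of all genes tested that did. They were 13 large subunit genes (MRPL3, MRPL13, MRPL15, MRPL16, MRPL32, MRPL35, MRPL39, MRPL41, MRPL42, MRPL44, MRPL48, MRPL51 and MRPS30) and 7 small subunit genes (MRPS6, MRPS7, MRPS22, MRPS23, MRPS27, MRPS31 and MRPS35). By kind of protein, the members that passed were 6 of 20 large subunit proteins with a bacterial counterpart, 7 of 20 large subunit proteins specific to mitochondria, 2 of 13 small subunit proteins with a bacterial counterpart and 5 of 9 small subunit proteins specific to mitochondria. The last 2 shares, 15.4% and 55.6%, rest on few genes and were not compared by a test. Each animal had 1 library per method, so animals were compared against the spread within pairs.

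MRPL39 had the largest F of the members over all animals (12.1, adjusted p = 0.00138 by edgeR). Its Method QE and Method BL libraries were at 70.8 and 87.5 CPM in r16010 and at 65.3 and 83.1 CPM in r12075, but at 39.9 and 38.7 CPM in rh2957. So the same animals were at the top and at the bottom with either method. MRPL15, the counterpart of bacterial L15 (chromosome 8, 54758332 to 54772730), stood at 70.2 CPM with Method QE and 88.8 CPM with Method BL in r16010. Its lowest libraries were that of I30 in Method QE at 41.1 CPM and that of rh2957 in Method BL at 30.6 CPM (F = 9.45, adjusted p = 0.00347 by edgeR).

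MRPL35, the counterpart of bacterial L35 (chromosome 13, 22254041 to 22267784), was again highest in r16010, with 75.2 CPM in Method QE and 93.8 CPM in Method BL. It was lowest in I30, with 36.7 CPM in Method QE and 34.4 CPM in Method BL (F = 9.32, adjusted p = 0.00363 by edgeR). MRPL41, a large subunit protein specific to mitochondria, ran another way. On average it was highest in r15045, with 13.1 CPM in Method QE and 15.04 CPM in Method BL. It was lowest in r16010, at 6.02 CPM in Method QE and 4.33 CPM in Method BL, and this animal was at the top for MRPL15, MRPL35 and MRPL39. Its F was 9.28 (adjusted p = 0.00367 by edgeR), and its span overlaps DPH7 and PNPLA7. The 4 stayed past the threshold with each animal left out, but F and its order moved: without rh2957 it was 8.06 for MRPL39, 16.3 for MRPL15, 24.2 for MRPL35 and 13.3 for MRPL41.

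Most members leaned the same way in a given animal. The mean of both libraries was above the mean over animals for 54 of 62 members in r16010 and 52 in r12075, and below it for 57 members in r16116, 50 in I30 and 45 in rh2957. As medians of log2 CPM centred over animals, the members stood at 0.25 in r12075, 0.24 in r16010, 0.09 in r15045 and 0.07 in rh2740, and at -0.03 in r15089, -0.12 in I30, -0.15 in rh2957 and -0.27 in r16116. Over all genes tested such medians lay between -0.0104 in r16010 and 0.0139 in r12075. The 20 members that differed between animals were picked by a test on these same values. Of them, 19 were above the mean in r12075, 18 were above it in r16010 and 20 were below it in r16116. Exceptions in single animals were MRPS23, below the mean in r12075 at -0.19, and MRPL41 in r16010 at -0.73. Animals are not described further in the labels used here, so the differences cannot be tied to the overload, and the part of tissue composition was not tested.

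**Figure D5:**
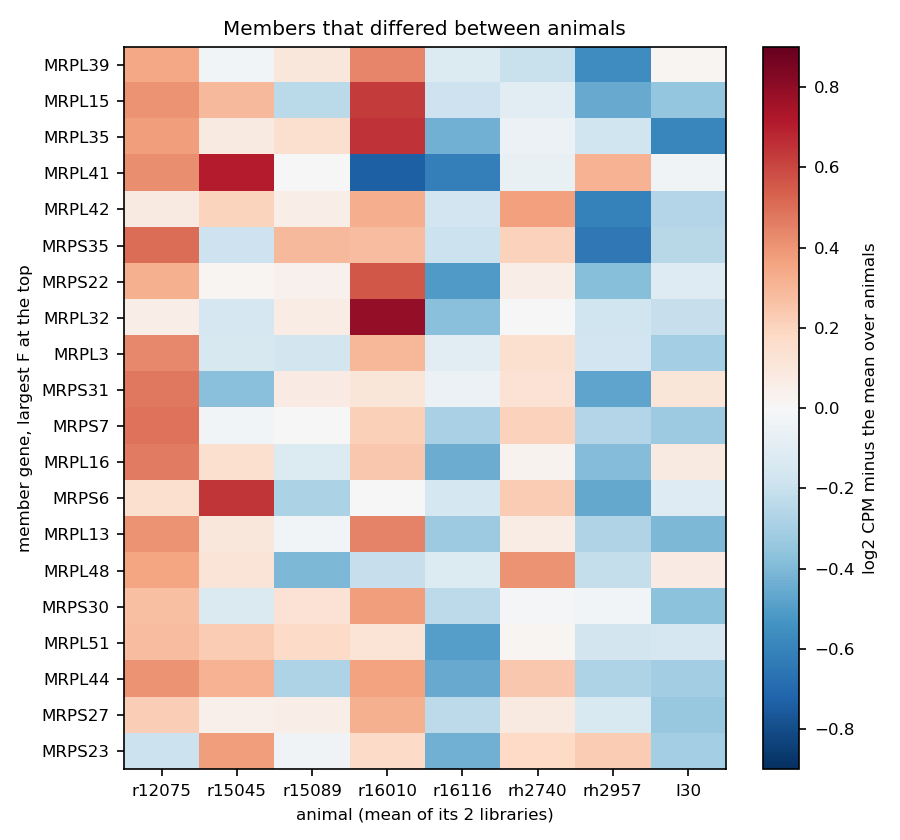
Level in each animal (x axis, mean of its Method QE and Method BL libraries) of the 20 members that differed between animals (y axis, largest F at the top), as log2 CPM minus the mean over animals. Red is above and blue below the mean; the columns of r12075 and r16010 are mostly red and that of r16116 is blue throughout, while MRPL41 is at -0.73 in r16010.

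With the animals left out in turn, 12 to 23 members passed between animals, the fewest without r12075 (where 26.9% of all genes passed) and the most without r15045 (34.2%), and 11 to 18 of the 20 were among them. The calls did not change by over 1.5 times with the other scaling methods, but with library totals and no scaling factors 1 member passed, beside 16.5% of all genes.

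Further entries of the table carry a member of the same family under an Ensembl identifier only, and a table of gene names or the RefSeq place gave them a name: MRPL1, MRPL18, MRPL20, MRPL23, MRPL33, MRPL58 and MRPS33, the last for 2 entries. They were not counted among the 62. None of these 8 passed between methods, 7 had a log2 fold change above 0, and the median was 0.18. The MRPS33 entry on chromosome 14 spans only 321 bases, against 8710 bases for that on chromosome 3. Whether the short entry is a working gene was not tested. MRPL18, a counterpart of bacterial L18, had the smallest p, with 7.67 ± 1.34 CPM in Method QE and 6.27 ± 0.573 CPM in Method BL (SD, n = 8 each), a log2 fold change of 0.28 and an edgeR adjusted p of 0.191. MRPL2, MRPL10, MRPL12, MRPL27, MRPL55, MRPS5, MRPS10 and MRPS24 were not analysed here. The entries at the places of the mitochondrial rRNAs, the RNA core of the same ribosome, varied widely between libraries. The 12S rRNA entry (ENSMMUG00000065373, mitochondrial genome, 608 to 1554) averaged 2643 ± 1969 CPM in Method QE and 2094 ± 826 CPM in Method BL, and the 16S rRNA entry (ENSMMUG00000065362, 1624 to 3181) averaged 1151 ± 381 CPM in Method QE and 1235 ± 474 CPM in Method BL (SD, n = 8 each). Neither passed between methods. The libraries were depleted of rRNA, so these levels are what depletion left.

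Genes that act with the mitochondrial ribosome did not pass between methods either. Of the 5 ribosomal proteins under other symbols, 0 passed and the median log2 fold change was 0.02, with PTCD3 of the small subunit at 54.5 ± 10.9 CPM in Method QE and 55.5 ± 18.4 CPM in Method BL (SD, n = 8 each). Of 24 genes for ribosome assembly and rRNA processing, 0 passed and the median was 0.04. The smallest p was that of TFB1M, which methylates the small subunit rRNA, with a log2 fold change of -0.31 (adjusted p = 0.155 by edgeR). Of 15 translation factors, 0 passed and the median was 0.07. Elongation factor TUFM had a log2 fold change of 0.28 (adjusted p = 0.174) and the release factor MTRF1L 0.17 (adjusted p = 0.140, both by edgeR).

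Of 17 mitochondrial aminoacyl-tRNA synthetases, 0 passed and the median was 0.03. MARS2, which charges the methionine tRNA, was at 7.83 ± 2.61 CPM in Method QE and 10.2 ± 2.7 CPM in Method BL (SD, n = 8 each), with a log2 fold change of -0.39 and an edgeR adjusted p of 0.122. Of 5 genes of mitochondrial transcription, 0 passed and the median was -0.0043. TFAM, which packages mitochondrial DNA and starts its transcription, had a log2 fold change of 0.25 (adjusted p = 0.134 by edgeR). MTERF1, which binds mitochondrial DNA as a termination factor, lay the other way at -0.21 (adjusted p = 0.170 by edgeR) and was higher in Method QE in 1 of 8 animals. Of 10 nuclear regulators, 0 passed and the median was 0.04. YY1 was higher in Method QE in 8 of 8 animals, but with a log2 fold change of 0.13 (adjusted p = 0.255 by edgeR). The mRNAs that the ribosome translates, 13 in all, had log2 fold changes of 0.33 to 0.80 with a median of 0.58, and 0 passed. With animal r15045 left out, 6 of them passed, ATP8, COX2, ND1, ND3, ND4L and ND5, all higher in Method QE, and no gene of the lists above did. Of 76 entries for proteins of the cytosolic ribosome, 35 passed, all higher in Method QE (0.854% of all genes). The median log2 fold change of the 76 was 0.33. Some proteins had more than 1 entry, and their entries could differ. For the entries of RPS2 the edgeR adjusted p was 0.0157 and 0.508, and for those of RPS27A 0.00429 and 0.451. The count of cytosolic entries was 0 with the offset for transcript length and GC content, where the median was 0.16. It was also 0 with no replicate block. In these fits 0.0337% and 0.0212% of all their genes passed higher in Method QE. With animals left out in turn the count was 4 to 33. It was 4 without rh2740, 6 without r15089, 8 without r16010 and 14 without r16116. The shares of all genes higher in Method QE were then 0.106%, 0.155%, 0.219% and 0.248%. So the counts of cytosolic entries fell together with the calls over all genes. The difference between the 2 ribosomes was not tested.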

How the data were processed

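Total RNA of 16 libraries, 8 per method, was analysed. According to the paper's methods, reads were aligned to Mmul_10 with STAR 2.7.8a, and the Partek E/M algorithm then apportioned them to genes. What the authors deposited are these estimated counts, with no normalization, and 76.7% of them are whole numbers to within 1e-06. One entry split over 3 lines was put together, and every gene has a sum of at least 10 counts. The deposited gene length is the genomic span with introns and was not used. All count columns matched a sample.

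Groups came from the titles. The protocol text gives the same kit, that of Method QE, for every sample, against the titles. Replicate numbers rank the animals differently in the 2 methods, so pairs were formed by the animal in the library name. Deviations from the method means correlated within each pair, with r from 0.34 in r15045 to 0.64 in r16010 across genes, which are not independent. For 16 of 16 libraries the best match in the other method was that of the same animal.

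Counts were rounded, filtered with filterByExpr, scaled by TMM and tested with the quasi-likelihood F test of edgeR 4.0.16 in R 4.3.3 with animal and method as terms, with Benjamini-Hochberg adjustment over 14165 genes and a threshold of 0.05. Log2 CPM used a prior count of 2. All 62 members passed the filter. Animals are separate, but whether both libraries of an animal came from separate pieces of tissue is not given in the sources used here. Transcript lengths, GC content and promoter windows came from RefSeq on Mmul_10. Alternatives were no block, other scaling, other filters, DESeq2 1.42.0, limma 3.58.1 (voom), an offset for length and GC content (splines with 5 degrees of freedom), animals left out in turn, and subsets of 5 and 3 animals by the last letter, B or R, of their Method BL names.

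The members and gene lists were chosen with earlier results of these data known. Named members are the 6 with the smallest p between methods (none passed), the 3 most and 3 least abundant per kb, the 4 with the largest F between animals, those with the largest and smallest fold change, members with known disease links and the MRPS18 proteins, and up to 3 genes per list with the smallest p. PTCD3 and exceptions in single animals were named after their values were seen.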

Additional observations from a re-analysis of the deposited data

Results flagged for a closer look

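Dixon's test for a sample far from the others was applied within each method to the named members and to their share and sum, and to the paired medians of the animals, 49 groups of 8 values in all, and chance alone flags about 1 in 20 groups. MRPL11 was at 11.76 CPM in the Method BL library of animal r12075, where the other 7 Method BL libraries lay between 6.87 and 9.09 CPM. MRPL49 was at 51.83 CPM in the Method BL library of animal r15045, where the others lay between 30.6 and 36.9 CPM. MRPS18A was at 16.06 CPM in the Method QE library of animal rh2957, where the others lay between 8.91 and 12.1 CPM.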

How the results depend on the processing

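No member passed between methods under any setting except DESeq2 (1 member) and with animals left out in turn (0 to 2). The replicate numbers in the labels do not pair the animals, so the block was the animal. With no replicate block, 0 members passed, the median log2 fold change of the members was 0.13 and 5 genes of 14165 passed in place of 303. That median was 0.08 to 0.19 with animals left out in turn and -0.10 with library totals and no scaling factors, chosen after seeing the data. With those totals 1 member passed between animals (12 to 23 with animals left out) and 3 genes of the related lists did between methods (0 to 6). The difference in share was -0.0131 to -0.00634 percentage points with animals left out. With the shortest transcript the median level was 13.6 CPM per kb.

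No reversed value had passed the test, and the causes were not tested. With library totals the median of all genes moved to -0.24, and the log2 fold changes, all above that median, were -0.033 for MRPL49, -0.13 for MRPS23, -0.19 for MRPL53, -0.00073 for MRPL44, -0.16 for MRPL35, -0.071 for MRPL41, -0.18 for MRPL3, -0.19 for MRPS16, -0.15 for MRPS18A and MRPS18B and -0.10 for MRPS18C. With the offset for length and GC content and the replicate block they were -0.075 for MRPS23, -0.043 for MRPS16 and -0.11 for MRPS18C. In the 5 animals with names ending in B they were -0.078 for MRPL53 and -0.042 for MRPL35, and in the 3 ending in R 0.078 for MRPL15, -0.039 for MRPS34 and -0.12 for MRPS16. With animals left out in turn the sign also changed for MRPL53 (-0.033 to 0.11), MRPL15 (-0.13 to 0.0057), MRPL35 (-0.024 to 0.14), MRPS16 (-0.042 to 0.11), MRPS22 (-0.076 to 0.032) and MRPS18A (-0.0086 to 0.13). With counts as low as 13 for MRPS26, small differences were not detectable.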
